A study of Zea mays with 4 samples.

Results

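The 14-3-3 proteins of maize (Zea mays) were followed through every array probe whose first annotation names a 14-3-3 or GF14 protein. The rule found 23 of 54787 maize probes that have 1 spot on 1 array version, 9 of the 28450 carried by version A and 14 of the 26337 carried by version B. The rule used the annotation text and no measured value. On each of 4 spotted 2-colour oligonucleotide arrays, total RNA of roots given nitrate, labelled with Cy3, was set against total RNA of control half-roots, labelled with Cy5. Plants had been raised in solution for 6 days with 0.5 mM nitrate and for 2 days without nitrogen, after which their root was divided between 2 compartments. The nitrate half-root was supplied with 1 mM nitrate for 1 h, and the control half-root had no nitrogen and 1 mM calcium chloride in its place. Both were sampled at day 10 as root segments of 15 cm from the tip. The nitrate half-root and the control half-root thus shared the days without nitrogen, and the genotype is not given in the sources used here. There were 2 arrays of each version, which carry different probes, and each version was analysed on its own.

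14-3-3 proteins are dimers that bind client proteins at phosphorylated serine or threonine residues and change their activity, location or stability. In spinach and Arabidopsis leaves, nitrate reductase that was phosphorylated by calcium-dependent or SNF1-related protein kinases is bound by 14-3-3 proteins in the presence of divalent cations and is thereby inactivated. Protein phosphatase 2A removes the phosphate. The same family binds and activates the phosphorylated plasma membrane proton pump, which drives nitrate uptake, and binds sucrose-phosphate synthase, trehalose-phosphate synthase and glutamine synthetase. The name GF14 stands for G-box factor 14-3-3 homologue, after the DNA-protein complex in which plant members were found. The arrays measure RNA, and neither the amount of these proteins nor their phosphorylation.

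None of the 23 probes passed the test, and each mean difference between the half-roots was under 2-fold after normexp and loess. At a limma adjusted p under 0.05, adjusted over all probes of a version, 0 of 9 were called on version A, where 0% of 28374 tested probes were called in either direction. On version B 0 of 14 were called, where 0.0525% of 24748 tested probes were called higher and 0% lower. The limma adjusted p of the 23 probes lay between 0.339 and 0.841 (version A) and between 0.206 and 0.98 (version B). At an unadjusted limma p under 0.05, 4 probes were higher and 1 was lower. On version A 3 of 9 were higher, against 7.55% of all tested probes, and 1 of 9 was lower, against 4.49%. On version B 1 of 14 was higher, against 7.64%, and none was lower, against 5.29%. No probe differed by 2-fold or more on both of its arrays, where 0.592% of all tested probes of version A were that much higher and 0.127% that much lower, with 0.59% and 0.0566% in version B.

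The values are log2 ratios of nitrate over control after loess normalization within each array, and a value above 0 means more signal in the nitrate half-root. The deposited intensities are on a linear, background-subtracted scale, and the level of one probe cannot be set against that of another. All 23 probes passed the filter on dim signals, and 91 of their 92 channel values exceeded the 95th percentile of the blank spots of the array. Intensities in version A ran from 226 to 31538 with nitrate and from 115 to 59085 in controls, and in version B from 306 to 63389 with nitrate and from 116 to 69447 in controls. For 8 of the 23 probes the annotation lists another maize sequence as a match, so their signal may hold more than 1 transcript. Nitrate RNA carried Cy3 on every array, and a dye effect on a probe and a nitrate effect cannot be told apart. The column headers give both versions the same RNA names, so values on A and B may come from shared RNA and were not counted as further replicates. The series text gives 2 biological replicates; whether their control RNA came from separate plants is not given in the sources used here, and the spread between arrays may in part be technical.

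Facts of the arrays as a whole were as follows. The median intensity of maize probe spots lay between 1572.5 and 1939 with nitrate and between 1438 and 1960 in controls, while the 95th percentile of the blanks was 21 to 242.4. Saturation touched 114 to 481 maize probe spots per array with nitrate and 311 to 584 in controls. All 27 probes for root markers exceeded the blanks in all 4 channels, with a median intensity of 6750.5, as did 41 of 47 leaf marker probes, with a median of 963.0, and 159 of 313 seed marker probes, with a median of 312.0. Summed over its probes, the root marker signal was 622728 and 528659 with nitrate, against 390010 and 454461 in controls, and the leaf marker signal was 130188 and 149401 with nitrate, against 198725 and 157220 in controls. The summed root marker signal was thus higher and the leaf marker signal lower with nitrate on both replicates, before any normalization. Bright probes weigh most in these sums. The root list holds probes annotated as root isozyme, root-specific, root-preferential, root cap or non-symbiotic hemoglobin. A response of the listed genes to nitrate and a change in the cells sampled cannot be told apart. The seed marker signal was 502963 and 336254 with nitrate, against 529830 and 337446 in controls. The part of these markers in any 14-3-3 ratio was not tested. In whole root segments, fewer cells of a type and less RNA per cell cannot be told apart.

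**Figure D1:**
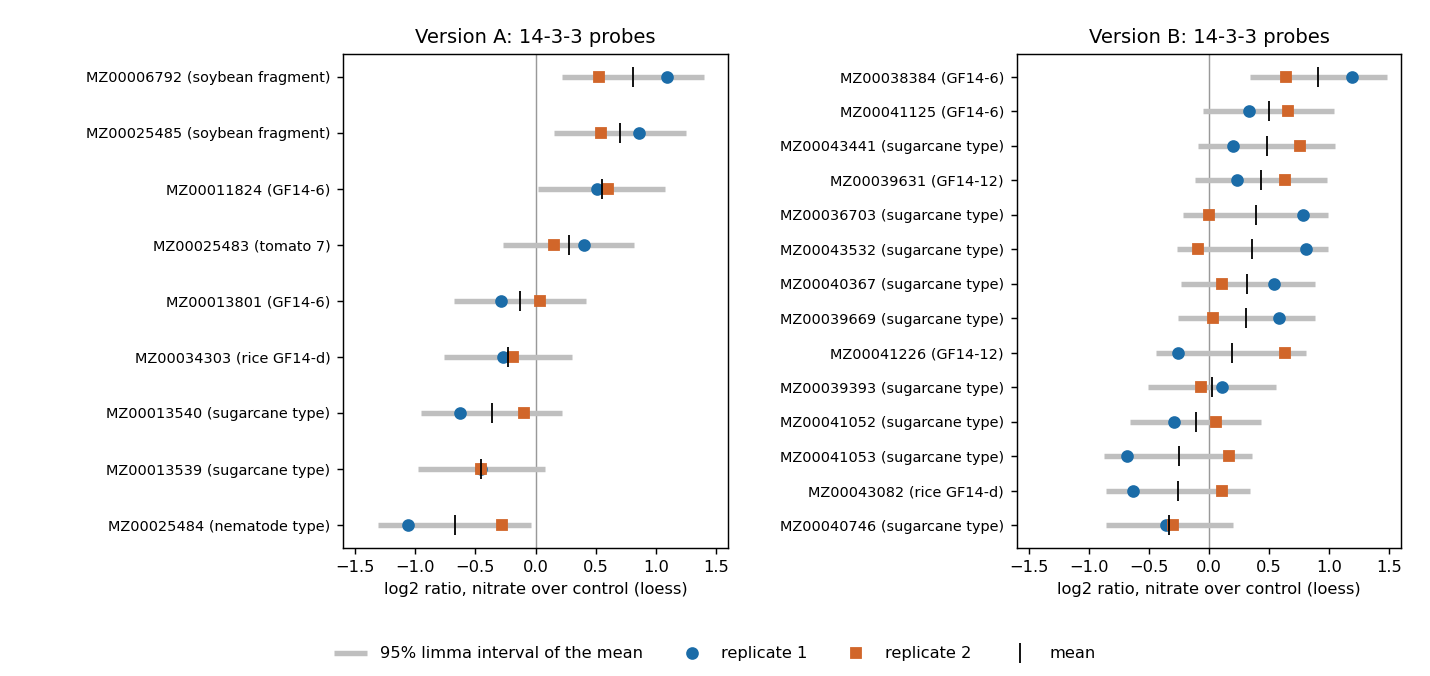
Log2 ratio of nitrate over control of each 14-3-3 probe on the 2 arrays of version A and the 2 of version B; each point is 1 array and each bar the 95% interval of the mean from limma. Probes lie on both sides of 0. The intervals of 5 of 23 exclude 0 before adjustment for the number of probes tested. These are 4 of 9 on version A, against 12% of all tested probes, and 1 of 14 on version B, against 12.9%. With median centring in place of loess the mean of 7 probes changes sign.

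GF14-6, a maize 14-3-3 protein, was the top protein hit of 4 probes, of which 3 had a ratio above 0 on both arrays and a mean above 0 in all settings tried. GF14-6 is a synonym of the maize gene grf1 in RefSeq (assembly Zm-B73-REFERENCE-NAM-5.0). After normexp and loess the highest 14-3-3 ratio of all was that of MZ00038384 on version B. This probe had intensities of 32326 and 47334 in the nitrate half-roots, against 19218 and 32006 in the control half-roots, and was brighter with nitrate on both arrays. Its log2 ratios were 1.19 and 0.64, a mean of 0.91 ± 0.39 (SD, n = 2) or 1.88-fold, with a 95% interval of 0.34 to 1.48 and a limma adjusted p of 0.206. It lay at the 97.6th percentile of all tested probes of its version. Its mean was 0.50 with median centring and 0.88 with the deposited ratios. In these 2 settings MZ00006792 (1.08 and 1.07) and MZ00025485 (0.97 and 1.22) on version A were higher.

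The other probes with GF14-6 as top hit differed among themselves. MZ00011824 on version A had 8189 and 19676 with nitrate, against 6972 and 15558 in controls. The nitrate channel was brighter on each array, and replicate 2 was brighter than replicate 1 in both channels. The log2 ratios of MZ00011824 were 0.51 and 0.60, with a mean of 0.55 ± 0.061 (SD, n = 2), 1.47-fold, an interval of 0.0226 to 1.08 and a limma adjusted p of 0.406. MZ00041125 on version B was dim, with 306 and 821 with nitrate against 116 and 293 in controls, and its control signal exceeded the blanks on 1 of 2 arrays. Its mean log2 ratio was 0.50 ± 0.24 (SD, n = 2), with an interval of -0.0494 to 1.04 and a limma adjusted p of 0.43. MZ00013801 on version A went the other way, with 15379 and 9437 with nitrate and 24950 and 10249 in controls. The difference of MZ00013801 lay almost wholly on replicate 1, its log2 ratios were -0.29 and 0.0327, and its mean was -0.13 ± 0.23 (SD, n = 2) with a limma adjusted p of 0.841. The 4 probes with this top hit thus gave means from -0.13 to 0.91.

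GF14-12, the second maize protein in the annotation and a synonym of grf2 in RefSeq, was the top hit of 2 probes on version B. MZ00039631 had 2091 and 6630 with nitrate, against 1946 and 3694 in controls. Its nitrate signal was above its control signal on both arrays, with log2 ratios of 0.23 and 0.63, a mean of 0.43 ± 0.29 (SD, n = 2) and a limma adjusted p of 0.503. MZ00041226 had 2027 and 2062 with nitrate, against 2771 and 959 in controls, so that the nitrate signal was nearly equal on the arrays and the control signal was not. Its log2 ratios of -0.26 and 0.63 had opposite signs, with a mean of 0.19 ± 0.63 (SD, n = 2) and a limma adjusted p of 0.814. The mean of both probes was above 0 in the 7 other ways of processing both arrays, while MZ00041226 was below 0 on replicate 1 alone.

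Rice GF14-d was the top hit of a pair of probes from contig TC233983, 1 on each version. For MZ00043082 the annotation lists 2 other maize matches, so its signal may hold other transcripts, and for MZ00034303 it lists none. MZ00043082 on version B had 33886 and 63389 with nitrate and 69447 and 63433 in controls, and both channels were saturated on replicate 2. Its log2 ratios were -0.63 and 0.11, with a mean of -0.26 ± 0.52 (SD, n = 2) and a limma adjusted p of 0.718. On replicate 2 the saturation leaves no measured difference. MZ00034303 on version A was near the dim end, with 241 and 226 with nitrate and 253 and 177 in controls. Its log2 ratios were -0.27 and -0.19, with a mean of -0.23 ± 0.0507 (SD, n = 2) and a limma adjusted p of 0.69, and this mean was 0.0765 with median centring and 0.0709 with the deposited ratios. The raw intensities of MZ00034303 were lower with nitrate on replicate 1 and higher on replicate 2.

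The largest group was 11 probes whose top hit is one sugarcane 14-3-3 protein, 2 on version A and 9 on version B. Their means ran from -0.45 to 0.48 with a median of 0.02; 6 were above 0 and 5 below, and 5 of those above turn below 0 with median centring. They come from different contigs and single reads, so the shared hit names a type of protein and not 1 maize gene. Contigs TC218944 to TC218947, numbered in sequence, gave 4 of these probes, and all 4 had a mean below 0 under loess, of which TC218945 turned with print-tip loess and the deposited ratios, and TC218947 with these and median centring.

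MZ00013539 from TC218944 had 31538 and 28770 with nitrate, against 57586 and 49458 in controls. Before normalization the control channel was the brighter one by a wide margin on both arrays. Part of this margin was shared by bright probes of version A, whose ratios ran low before loess. With median centring, which keeps that trend, MZ00013539 had a mean of -0.87. After loess its log2 ratios were equal to 2 decimals, -0.45 on each array, with an SD of 1.640e-04 (n = 2). The 95% interval was -0.98 to 0.0809, with a limma adjusted p of 0.46. The limma interval is wider than this SD because it draws on a spread pooled over all probes. MZ00013540 from TC218946 had 28494 and 27588 with nitrate and 59085 and 36715 in controls. It too was lower with nitrate on both arrays, with log2 ratios of -0.63 and -0.10, a mean of -0.36 ± 0.38 (SD, n = 2) and a limma adjusted p of 0.561. MZ00041052 from TC218945 had 8085 and 6747 with nitrate and 13113 and 5801 in controls, with a mean of -0.11 ± 0.25 (SD, n = 2). MZ00041053 from TC218947 had 413 and 508 with nitrate and 569 and 256 in controls, with a mean of -0.25 ± 0.60 (SD, n = 2). For both probes of version B the groups overlapped, nitrate being lower on replicate 1 and higher on replicate 2.

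Among the other sugarcane-type probes, 1 lay above 0 in all settings tried and 1 below. MZ00043441 had 15874 and 22354 with nitrate and 18817 and 13231 in controls, and its log2 ratios were 0.20 and 0.76, with a mean of 0.48 ± 0.39 (SD, n = 2) and a limma adjusted p of 0.467. Its raw intensity on replicate 1 was lower with nitrate, while the loess ratio was above 0. MZ00040746 had 6175 and 15659 with nitrate and 10380 and 19454 in controls, lower with nitrate on both arrays. Its log2 ratios were -0.36 and -0.30, with a mean of -0.33 ± 0.0448 (SD, n = 2) and a limma adjusted p of 0.594. MZ00040746 lists TC220750 as a 95% match, the contig of MZ00043532, so these probes may detect shared transcripts. MZ00043532 had 12313 and 24714 with nitrate and 9236 and 27176 in controls, and its log2 ratios of 0.81 and -0.0944 went opposite ways, with a mean of 0.36 ± 0.64 (SD, n = 2), or -0.0158 with median centring.

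The remaining 4 probes of this type had a mean above 0 under loess and below 0 with median centring. MZ00036703 had 24633 and 21435 with nitrate and 19541 and 21937 in controls, a mean of 0.39 ± 0.56 (SD, n = 2). MZ00039669 had 18071 and 14841 with nitrate and 16417 and 14354 in controls, a mean of 0.31 ± 0.39 (SD, n = 2). Both were brighter on replicate 1 with nitrate and close to equal on replicate 2. MZ00040367 had 58379 and 63281 with nitrate and 52747 and 63390 in controls, a mean of 0.32 ± 0.30 (SD, n = 2), and was saturated in both channels on replicate 2. MZ00039393 had 24994 and 39649 with nitrate and 31363 and 43833 in controls, with a mean log2 ratio of 0.0215 ± 0.12 (SD, n = 2), the smallest of the family. Its 95% limma interval was -0.51 to 0.56.

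**Figure D2:**
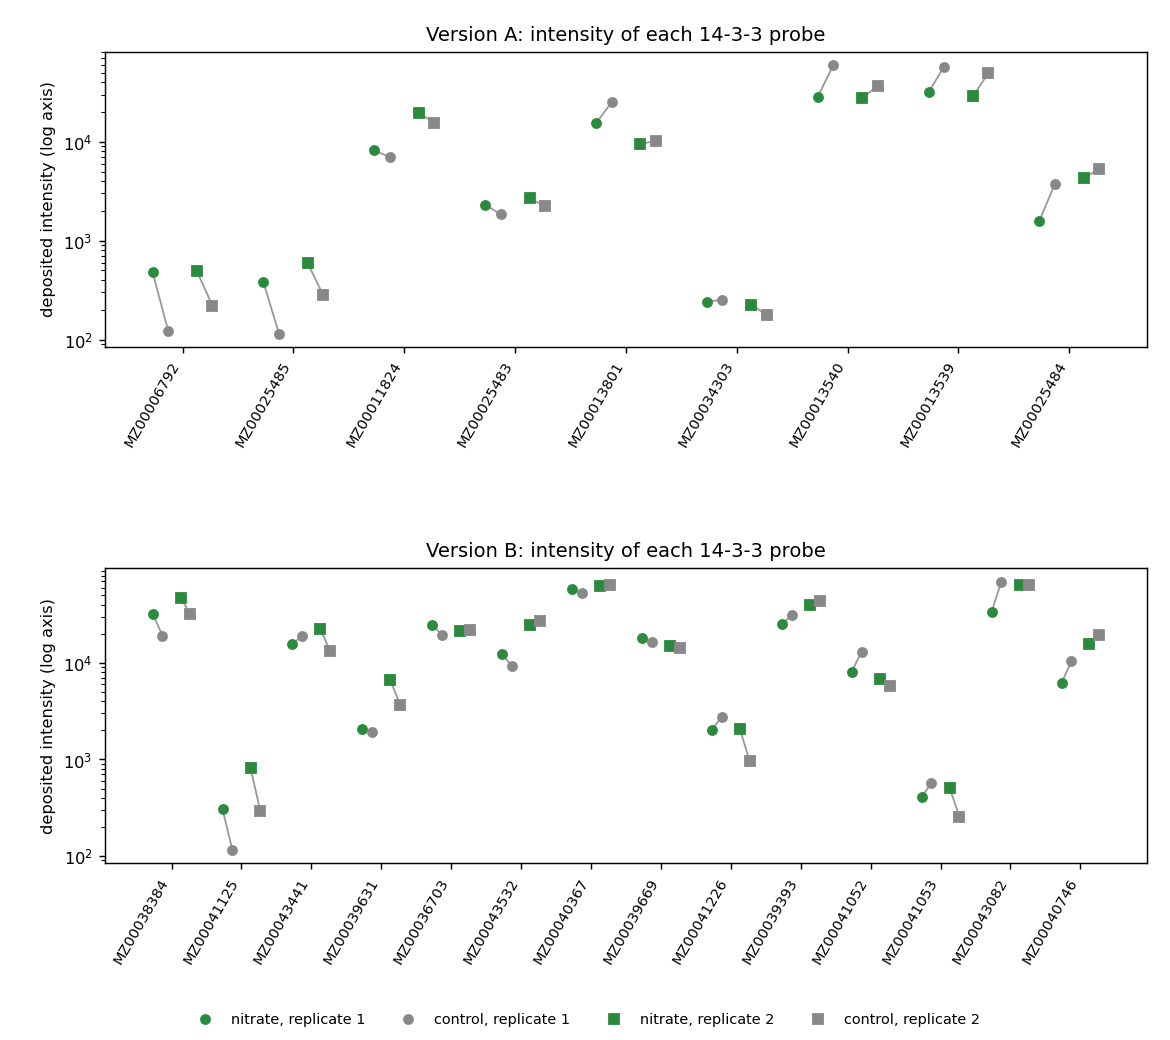
Deposited intensity (log axis) of each 14-3-3 probe in the nitrate half-root (green) and the control half-root (grey) on replicate 1 (circles) and replicate 2 (squares), version A above and version B below; lines join the 2 channels of an array. In version A the probes span 226 to 31538 with nitrate and 115 to 59085 in controls, and in version B 306 to 63389 with nitrate and 116 to 69447 in controls.

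The contig TC221970, whose top hit is a fragment of a soybean 14-3-3 homologue, had 2 probes, and both were above 0 in all settings tried. They share contig, RNA and the arrays of version A and are not independent of each other. MZ00006792 had 478 and 488 with nitrate, against 123 and 220 in controls. MZ00025485 had 379 and 589 with nitrate, against 115 and 279 in controls. Before normalization each nitrate value exceeded each control value in both probes. Dim probes of version A as a whole ran high before loess. Under a mean log2 intensity of 10, median centring gave values higher than loess by a median of 0.24. For both probes the annotation lists other maize matches, so their signal may hold other transcripts. The log2 ratios of MZ00006792 were 1.09 and 0.53, with a mean of 0.81 ± 0.40 (SD, n = 2), 1.75-fold, an interval of 0.22 to 1.40 and a limma adjusted p of 0.339. Those of MZ00025485 were 0.86 and 0.54, with a mean of 0.70 ± 0.23 (SD, n = 2), 1.62-fold, an interval of 0.15 to 1.25 and a limma adjusted p of 0.359. They lay at the 96.4th and 94.5th percentiles of the tested probes of version A. Both signals are low, and the constant of 50 added before taking logs draws such ratios towards 0: without normexp and this constant the means were 1.15 and 1.00, and with the deposited ratios 1.07 and 1.22.

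The neighbouring contig numbers gave other values. MZ00025483 from TC221968, with tomato 14-3-3 protein 7 as top hit, had 2308 and 2675 with nitrate, against 1844 and 2237 in controls. Nitrate was higher on both arrays by a small margin, with log2 ratios of 0.40 and 0.15, a mean of 0.28 ± 0.18 (SD, n = 2) and a limma adjusted p of 0.638. After loess, MZ00025484 from TC221969 had the lowest ratio of all 23 probes. Its top hit in the annotation is a 14-3-3 protein of Heterodera glycines, the soybean cyst nematode, and not a plant protein. It had 1595 and 4295 with nitrate, against 3762 and 5312 in controls. Nitrate was lower on each array, with log2 ratios of -1.06 and -0.28, a mean of -0.67 ± 0.55 (SD, n = 2), 1.59-fold lower, an interval of -1.31 to -0.0343 and a limma adjusted p of 0.4. Most of that mean came from replicate 1, and the deposited ratios were 0.5132 and 0.958.

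Direction was read over both arrays. On version A 4 of 9 probes had a ratio above 0 on both arrays, against 30.4% of all tested probes, and 4 of 9 below 0 on both, against 30.1%. On version B 6 of 14 were above 0 on both, against 29.7%, and 1 of 14 below 0 on both, against 30.6%. Without the 2 probes saturated in both channels on replicate 2 these counts were 5 and 1. Opposite signs on the arrays were found for 1 of 9 probes of version A, against 39.5% of all tested probes, and for 7 of 14 of version B, against 39.7%. With median centring the version B counts became 3 above and 4 below, so neither count held over these settings. The median log2 ratio of the family was -0.13 on version A, with -0.27 on replicate 1 and 0.0327 on replicate 2, beside 0.00384 over all tested probes, and it was 0.0765 with median centring and 0.0709 with the deposited ratios. On version B it was 0.32, with 0.21 on replicate 1 and 0.11 on replicate 2, beside -0.0036 over all probes, and -0.01 with median centring.

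The sign of some means held over the settings, all of which reprocess the same arrays. Of the 23 probes 15 kept the sign of their mean in all 7 other ways of processing both arrays, and 8 turned in at least 1. Dropping the dim filter and changing the prior leave every mean as it is, so neither could turn a sign. Signs turned with median centring (7 probes), print-tip loess (2) and the deposited ratios (3), and with none of the others. Of the 15, 12 also had 1 sign on both arrays: 8 above 0 and 4 below. The share of all tested probes that met both conditions was not counted, so these numbers only describe the members. By sign on both arrays alone, 30.1% of all tested probes were above 0 and 30.4% below. MZ00041125, one of the 8, had a control signal at the level of the blanks on replicate 1, and without it 11 probes remain, 7 above 0 and 4 below. The 8 were MZ00038384, MZ00011824 and MZ00041125 with GF14-6 as top hit, MZ00039631 with GF14-12, the pair of TC221970, MZ00025483 and MZ00043441. The 4 were MZ00013539, MZ00013540, MZ00040746 and MZ00025484. In the authors' deposited ratios, 1 of 9 probes on version A, MZ00025485 with 3.0483 and 1.7782, and 1 of 14 on version B, MZ00041125 with 1.6157 and 1.8319, reached 1.5 on both arrays, against 5.13% and 3.8% of all tested probes. The ratio of MZ00041125 on replicate 1 was taken over a control of 116, under the 120.4 of the blanks, and without this probe 0 of 13 on version B reached 1.5 on both. No member was at or under 1/1.5 on both, against 1.89% and 1.92%.

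**Figure D3:**
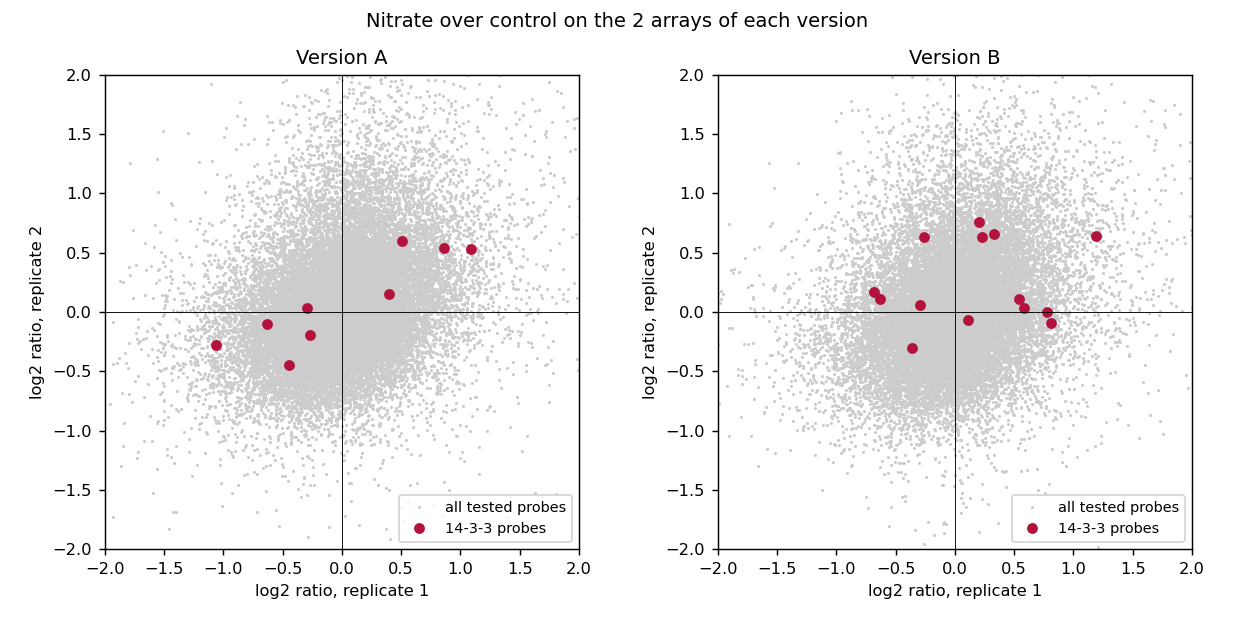
Log2 ratio of nitrate over control on replicate 1 (horizontal) against replicate 2 (vertical) for the 9 probes (version A, left) and the 14 (version B, right), over all tested probes in grey. The version A members run along the diagonal, while 7 of 14 members on version B lie in quadrants of opposite sign.

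The replicate arrays were closer to each other for the version A members than for those of version B, a difference that was not tested. Pearson's r of the log2 ratios between replicate arrays was 0.884 over the 9 members of version A and 0.153 over the 14 of version B, as a description with no test, and 0.289 and 0.269 over all tested probes. These points share 2 arrays, and several share a contig or a top hit. The median SD between arrays was 0.23 for members and 0.25 for all probes of version A, and 0.39 and 0.24 in version B.

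What could have been seen is set by 2 arrays. The 95% limma intervals after loess, not adjusted for the number of probes, were 1.06 to 1.27 wide. Of these 16 of 23 lay within -1 and 1, so that 2-fold differences were outside them. The 16 include MZ00043082 and MZ00040367, whose saturation on replicate 2 means that their intervals do not bound the difference. They also include dim probes, such as MZ00034303 and MZ00041053, whose ratios the added constant draws towards 0. The intervals of 6 probes reached past 1, and that of 1 reached past -1. The shares of all tested probes with such intervals were not counted, so these numbers only describe the members. On simulated ratios of version A (28374 probes) limma called 4.15% of 2-fold and 89.3% of 4-fold changes. On those of version B (24748 probes) it called 11.2% and 94%. The simulated noise came from the spread that limma fitted over all probes, with 200 changed probes in each draw. In the measured ratios of version A no probe was called. There the glutamine synthetase probe MZ00014550, with a mean of 3.21 ± 1.66 (SD, n = 2), had a limma adjusted p of 0.163. The simulated shares may therefore not hold for the measured arrays. After normexp and loess every 14-3-3 mean was under 2-fold, a size that this test seldom called in the simulation, while MZ00006792 and MZ00025485 reached 1.07 and 1.22 on the log2 scale with the deposited ratios.

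How far a ratio depended on the normalization went with the brightness of the probe. Before loess the ratio of nitrate over control declined with brightness over all probes, a trend that loess takes out and median centring keeps. For probes with a mean log2 intensity of 13 or more, median centring gave values lower than loess by a median shift of -0.34 in version A (5087 probes) and -0.37 in version B (5242 probes). For probes under 10 it gave values higher by 0.24 (10348 probes) and 0.32 (6953 probes). Of the 14-3-3 probes 4 of 9 in version A and 9 of 14 in version B were in the bright class, and 3 and 2 in the dim one. The sign changes with median centring fell on 5 bright and 2 dim members.

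**Figure D4:**
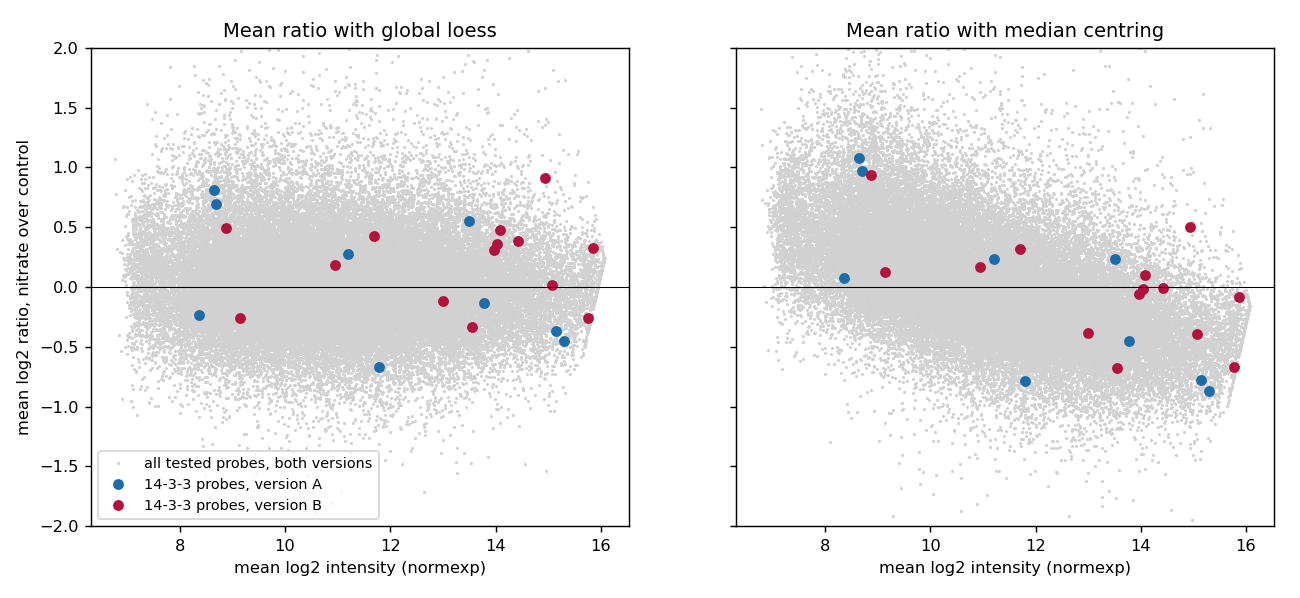
Mean log2 ratio of nitrate over control (vertical) against mean log2 intensity (horizontal), with loess on the left and median centring on the right, for 14-3-3 probes of version A (blue) and version B (red) over all tested probes (grey). With median centring bright probes lie lower than with loess, by a median shift of -0.34 in version A and -0.37 in version B, and dim probes higher, by 0.24 and 0.32.

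Probes for the partners of 14-3-3 proteins were read from 8 annotation lists with 244 probes, of which 234 were tested. None passed the limma test after adjustment. The lists match words, so that the kinase lists also hold substrates and interacting proteins. Over both versions 30.1% of all 53122 tested probes were above 0 on both arrays and 30.4% below, and 4033 were higher and 2583 lower at an unadjusted limma p under 0.05. For the 14-3-3 probes these counts were 10 above and 5 below of 23, and 4 higher and 1 lower. At that unadjusted limma p, 7.55% of all tested probes of version A were higher and 4.49% lower. On version B these shares were 7.64% and 5.29%.

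Nitrate reductase, the client through which the family is tied to nitrate, had 5 of 7 probes above 0 on both arrays and 1 below, 5 higher at an unadjusted limma p under 0.05, and a median log2 ratio of 0.64, or 0.77 with median centring. Its brightest probe MZ00019427 had 42491 and 56754 with nitrate, against 18086 and 21894 in controls, a mean log2 ratio of 1.66 ± 0.0439 (SD, n = 2) and a limma adjusted p of 0.141, with the nitrate channel saturated on replicate 2. MZ00040552 had the largest ratio of the list, with 10780 and 26117 with nitrate against 4249 and 1993 in controls, a mean of 2.58 ± 1.30 (SD, n = 2) and a limma adjusted p of 0.062. No 14-3-3 probe reached a mean as high as either.

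The enzymes that add and remove the phosphate that 14-3-3 proteins bind had values on both sides of 0. Of 83 tested probes for calcium-dependent kinases 27 were above 0 on both arrays and 28 below, with a median of 0.0593, or -0.0496 with median centring. MZ00043881, a calcium-dependent protein kinase 2, had the largest ratio of that list, with 3189 and 10206 with nitrate against 1752 and 4461 in controls and a mean of 1.00 ± 0.0415 (SD, n = 2, limma adjusted p = 0.164). The brightest, MZ00025081, was saturated in 3 of its 4 channel values and had a mean of 0.10 ± 0.46, or -0.34 with median centring. Of 7 SNF1-related probes none was above 0 on both arrays and 3 were below, with a median of 0.019, or -0.24 with median centring. In that list MZ00026439, an AKINbetagamma kinase subunit, had a mean of -0.27 ± 0.08 (SD, n = 2, limma adjusted p = 0.642), with its control channel saturated on replicate 1, and MZ00025678, an interacting protein, -0.43 ± 0.00837 (SD, n = 2, limma adjusted p = 0.469). Of 55 tested probes for protein phosphatase 2A 21 were above and 17 below, and the median was 0.067, or -0.0204 with median centring. Both probes named here are for the scaffolding A subunit. MZ00041112 had 6325 and 9172 with nitrate against 3844 and 3440 in controls and a mean of 1.10 ± 0.15 (SD, n = 2, limma adjusted p = 0.147). MZ00040162 had 34626 and 52437 with nitrate against 73979 and 63386 in controls, with a mean of -0.43 ± 0.37 (SD, n = 2, limma adjusted p = 0.513). Its control channel was saturated on both arrays, so the control level was not measured in full.

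The other clients also had values on both sides of 0. Of 30 probes for trehalose-phosphate synthase 17 were above 0 on both arrays and 6 below, with a median of 0.31, or 0.41 with median centring. Its largest ratio was that of MZ00011726, with 9501 and 11380 with nitrate against 2059 and 6223 in controls and a mean of 1.66 ± 0.96 (SD, n = 2, limma adjusted p = 0.255). Its brightest probe MZ00039770 had a mean of 0.29 ± 0.12, or -0.10 with median centring. Of 19 tested probes for sucrose-phosphate synthase 10 were above and 3 below, with a median of 0.25, or 0.16 with median centring. MZ00044771 led that list, with 983 and 1704 with nitrate against 361 and 439 in controls and a mean of 1.07 ± 0.27 (SD, n = 2, limma adjusted p = 0.155). The brightest, MZ00002497, had 0.32 ± 0.29, or -0.0624 with median centring.

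Of 16 tested probes for plasma membrane proton pumps 3 were above 0 on both arrays and 8 below, with a median of -0.0639, or 0.0255 with median centring. Both named pumps had means above 0 in all settings tried. MZ00035524, the brightest, had 53971 and 63409 with nitrate against 37039 and 48319 in controls and a mean of 0.72 ± 0.32 (SD, n = 2, limma adjusted p = 0.289) with its nitrate channel saturated on replicate 2. MZ00009329 had 1175 and 1842 with nitrate against 671 and 601 in controls and a mean of 0.97 ± 0.41 (SD, n = 2, limma adjusted p = 0.304). Glutamine synthetase, the enzyme that assimilates ammonium, had 6 of 17 above and 5 below and a median of -0.00161, or -0.0253 with median centring. MZ00014550, annotated as the chloroplast form GS2, had 49029 and 56719 with nitrate, against 2862 and 17051 in controls, a mean of 3.21 ± 1.66 (SD, n = 2) and a limma adjusted p of 0.163, with the nitrate channel saturated on replicate 2. MZ00043860, the brightest, had 17250 and 20773 with nitrate, against 46871 and 26960 in controls, and a mean of -0.67 ± 0.47 (SD, n = 2, limma adjusted p = 0.337).

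**Figure D5:**
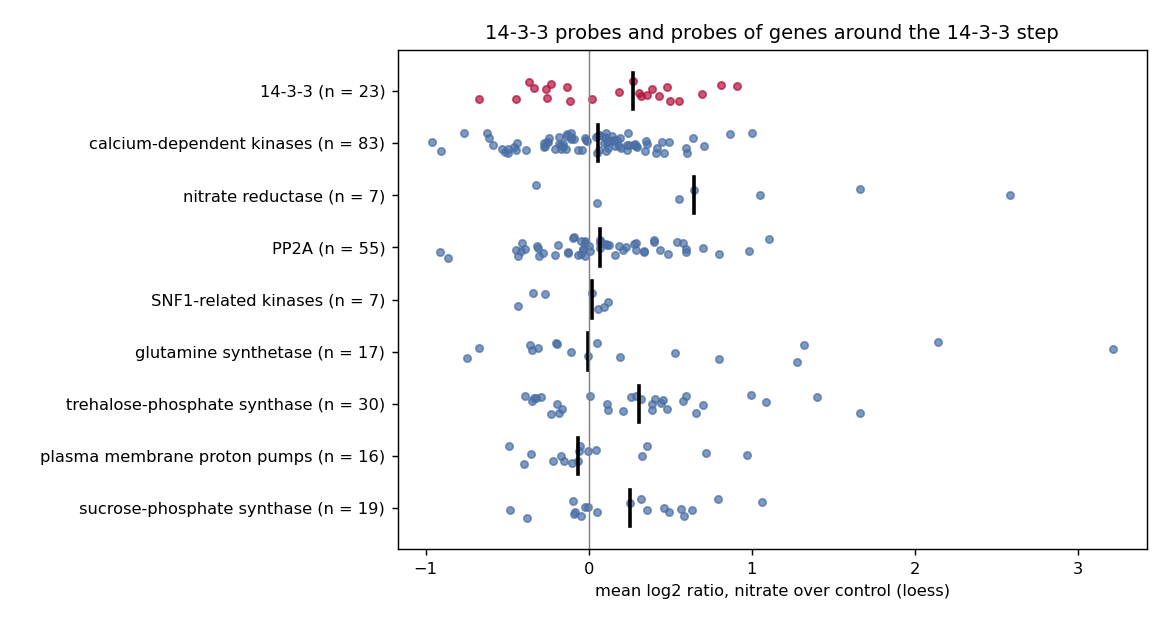
Mean log2 ratio of nitrate over control after loess of every tested probe of the 14-3-3 family and the 8 lists of partner proteins, 1 row per list, with the median marked. Nitrate reductase has the highest median, 0.64, and the 14-3-3 median of 0.28 becomes -0.00425 with median centring.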

How the data were processed

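Total RNA of nitrate and control half-roots was compared on 4 two-colour arrays of 32448 spots in 48 blocks each. The deposited intensity of each spot and dye had been background-subtracted by the authors (some values are below 0), and the deposited ratio of nitrate over control had been normalized within each array. How the authors did either is not given in the sources used here. In the series value table, 100% of spots equal the deposited ratio within 0.0001. From the deposited intensities, log2 ratios were computed with limma 3.58.1 in R 4.3.3 (normexp with offset 50, global loess, control and B-flagged spots at weight 0), and spots of a probe were averaged. No source used here gives the meaning of that flag. A probe was tested when any of its spots had a channel above the 95th percentile of blank spots on both arrays (28374 probes in version A, 24748 in version B). A channel at 0.98 or more of the highest intensity of its array was called saturated. Both rules were set after the data had been seen. The test of the mean of 2 arrays against 0 used lmFit and eBayes, and p-values were adjusted by Benjamini-Hochberg within a version, at a threshold of 0.05. Tested on simulated ratios (20 draws, 200 changed probes), 12.8% of the calls on version A and 9.85% on version B were false, above the nominal rate. The alternatives were no normexp, median centring, print-tip loess, scale normalization, the deposited ratios, no dim filter, a trended robust prior and each array left out. All 23 members are named. Of each list of partners the brightest probe and the one with the largest mean ratio in size are named. The members and lists were chosen with earlier results of these data known. Python 3.11.15 and pandas 2.3.3 made the counts.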

Additional observations from a re-analysis of the deposited data

How the results depend on the processing

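No 14-3-3 probe was called under any of the 7 other ways of processing both arrays, nor when every spot of a probe had to exceed the blanks, a rule added after seeing the data. The lowest limma adjusted p of a member was 0.0995 with median centring, 0.11 with a trended robust prior and 0.206 as reported. The first was that of MZ00041125, whose control signal on replicate 1 did not exceed the blanks. The other values were those of MZ00038384. The count over all probes moved more. On version A it was 0 as reported, 8 with print-tip loess, 2 with scale normalization and 4 with the robust prior. On version B it was 13 as reported, 11 with the every-spot rule, 0 without normexp and with the deposited ratios, 3 with print-tip loess, 4 with scale normalization and 71 with the robust prior. The members above 0 on both arrays of version B numbered 6 as reported, 3 with median centring, and 9 to 10 with 1 array left out, where a single array decides. Those below 0 numbered 1, 4 with median centring and 4 to 5 with 1 array left out. The version B median of 0.32 was -0.01 with median centring, 0.20 with print-tip loess, 0.21 with the deposited ratios and 0.11 to 0.21 with 1 array left out. Without the 2 saturated probes, also added later, it was 0.33, with 5 members above 0 on both arrays. The counts without MZ00041125 were likewise added after seeing the data. The version A median of -0.13 was 0.0765 with median centring and 0.0709 with the deposited ratios. Means that changed sign with median centring were those of MZ00034303 (0.0765), MZ00040367 (-0.0833), MZ00043532 (-0.0158), MZ00039393 (-0.39), MZ00036703 (-0.00425), MZ00041053 (0.12), MZ00039669 (-0.0602), MZ00025081 (-0.34), MZ00002497 (-0.0624) and MZ00039770 (-0.10). With print-tip loess MZ00041053 (0.12) and MZ00041052 (0.076) turned, and with the deposited ratios MZ00034303 (0.0709), MZ00041053 (0.20) and MZ00041052 (0.10). The cause was not tested. With 1 array left there is no spread and no test. No paired analysis was possible because each array already sets both RNAs of a replicate against each other, and the versions, which share replicate numbers, hold different probes and were not compared. Saturation of bright spots and low signal over background in dim ones limit single probes.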
